A study of Homo sapiens with 12 samples.

Results

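ATF3, JDP2, MAFF, MAFG and MAFK are 5 basic leucine zipper (bZIP) transcription factor genes whose transcripts were followed in HCT116 KAP1-dTAG cells. They were taken by symbol, matched to the Ensembl identifiers of the count table, and are 5 of the 19901 genes in it. All 5 passed the filter on low counts and were among the 13093 genes tested. HCT116 is a human colorectal carcinoma line, and in the clone used here (D5) KAP1, the protein of the TRIM28 gene, carries a C-terminal degradation tag, so every group shares the tagged protein and no group has untagged KAP1. All cells were kept in serum-free medium for 48 h and received either dTAG, the ligand that sends tagged KAP1 to the proteasome, or its solvent DMSO for 8 h. Serum was then withheld (S0) or given for 30 min (S30). RNA-Seq of ribosome-depleted RNA with ERCC spike-ins was done on 3 libraries of each of 4 groups, named by compound and serum state as DMSO-S0, dTAG-S0, DMSO-S30 and dTAG-S30, and read counts per gene were analysed.

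bZIP proteins bind DNA as dimers, with a basic region that reads the sequence and a leucine zipper that chooses the partner. ATF3 is a member of the ATF/CREB family and a classic stress-inducible and mitogen-inducible immediate early gene (IEG), and JDP2 is its closest relative, a JUN dimerization protein that represses at cAMP response elements and AP-1 sites. MAFF, MAFG and MAFK are the small MAFs, which have a bZIP domain but no transactivation domain. As dimers with each other they repress, and with CNC proteins such as NRF2 (NFE2L2) they activate antioxidant genes.

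The promoters are shown because ATF/CREB and JUN dimers bind the letters TGACGTCA, the cAMP response element, a motif of promoters of inducible genes. Each window runs from 120 bases before to 30 bases after the start of the MANE Select transcript, 5′ to 3′ on the gene's own strand, from RefSeq promoter sequences of build GRCh38.p14 (hg38), in which 4 of the 5 genes matched by symbol. The windows listed for ATF3 lie at other starts, 43354 and 6257 bp from that of its MANE Select transcript, and are not printed. MAFK had no window. Capitals mark the matches to the motifs searched.
MAFF promoter, chr22:38201874-38202023, plus strand: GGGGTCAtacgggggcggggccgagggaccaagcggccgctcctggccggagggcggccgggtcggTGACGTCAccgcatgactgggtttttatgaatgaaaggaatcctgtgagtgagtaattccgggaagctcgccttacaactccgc
JDP2 promoter, chr14:75427902-75428051, plus strand: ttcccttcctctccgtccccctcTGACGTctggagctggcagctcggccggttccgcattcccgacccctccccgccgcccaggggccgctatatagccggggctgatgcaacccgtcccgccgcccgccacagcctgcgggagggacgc
MAFG promoter, chr17:81927706-81927855, minus strand: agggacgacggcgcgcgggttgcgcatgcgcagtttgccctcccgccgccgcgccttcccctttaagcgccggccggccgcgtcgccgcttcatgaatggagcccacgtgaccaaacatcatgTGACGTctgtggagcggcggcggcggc
MAFF, JDP2 and MAFG each held TGACGT, and the complete TGACGTCA stood in MAFF alone of these 3 windows, at -54 to -47 from the start. Both strands of each listed 300-base window were searched for TGACGTCA, for its first letters TGACGT (so that every match of the longer motif is also one of the shorter), for the AP-1 site TGANTCA, for the core of CNC and small MAF dimers, written TGACNNNGC, and for the CArG box of serum response factor. Of the 35116 promoter windows of the same length, 1.85% held the complete TGACGTCA and 7.98% its first letters. The AP-1 site was in 7.71%, the CNC and small MAF core in 13.3% and the CArG box in 1.29%. No window listed for these genes held an AP-1 site or a CArG box. The windows of ATF3, and those of JDP2 and MAFF at other starts, held no match to any of the motifs. The promoter at the MANE Select start of ATF3, and that of MAFK, were not searched. TGACGT was added after the windows were read, so its matches cannot be weighed against the share of 7.98%. In JDP2 the match lay at -97 to -92 and in MAFG at 3 to 8 after the start. The MAFF window also held a TGACNNNGC match on the other strand at -122 to -114, whose last letters open the printed stretch. A match is a description of these letters and no evidence of binding.

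Depth was similar in all libraries, at 20537682 to 26278707 total counts, of which ERCC spike-ins took 7.97% to 9.37%. Levels are given as normalised CPM, in which the library size is adjusted by upper-quartile scaling. TRIM28, the gene of the targeted protein, was at 91.4 to 100 CPM in DMSO-S0, 109 to 120 in DMSO-S30, 85.4 to 97.1 in dTAG-S0 and 103 to 117 in dTAG-S30, and since dTAG acts on the protein this transcript is no check of the depletion. Of 8 colon epithelial markers 6 were tested, with EPCAM at 252 to 284 CPM, whereas VIL1 and LGALS4 stayed at or below 15 counts. Markers of fibroblasts, endothelium and blood summed to 15.1 to 19.0 CPM without serum and 68.7 to 88.3 CPM with serum. Most of this was COL1A1, at 13.5 to 15.7 CPM in DMSO-S0 and 78.8 to 85.5 CPM in DMSO-S30. It was at 11.8 to 14.5 CPM in dTAG-S0 and 65.6 to 77.9 CPM in dTAG-S30. VWF was at 1.07 to 2.52 CPM and PTPRC at 0.386 to 1.54 CPM over all libraries. PDGFRB was at or below 15 counts, and COL3A1, PECAM1 and CD3E at or below 10 counts, in every library. All libraries came from the clone described above, and whether any of these other cell types were present was not tested. In bulk samples a change in the number of cells and a change in RNA per cell cannot be told apart.

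Serum raised 4 of the 5 genes under both treatments, in the order ATF3, MAFF, MAFK and JDP2, and MAFG did not pass the test. Among all genes tested, 9.18% rose and 17.1% fell with serum in DMSO-treated cells, and 9.09% rose and 15.4% fell in dTAG-treated cells. The median log2 fold change of the 5 genes was 1.24 in DMSO-treated and 1.15 in dTAG-treated cells, and that of all genes tested was -0.07 and -0.06. The share of called genes that rose depended on the scaling: 35.0% in DMSO-treated and 37.2% in dTAG-treated cells here, and 61.4% and 61.7% with TMM scaling. Calls throughout are at an adjusted p under 0.05 from edgeR's quasi-likelihood F-test with Benjamini-Hochberg adjustment over the 13093 genes.

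**Figure D1:**
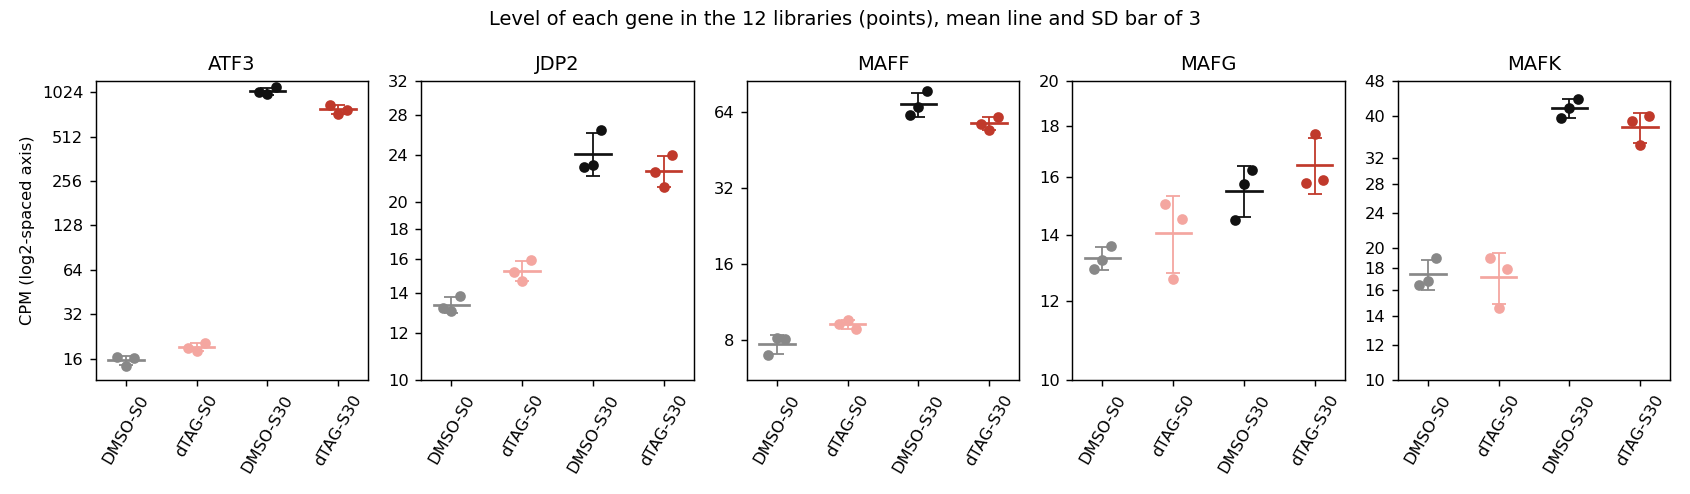
Normalised CPM of ATF3, JDP2, MAFF, MAFG and MAFK in each of the 12 libraries (points, log2-spaced vertical axis that differs between panels), with the mean (line) and SD (bar) of 3 libraries in each group. The 6 libraries with serum lie above the 6 without for ATF3, JDP2, MAFF and MAFK, and the MAFG points of dTAG-S0 reach into those of DMSO-S30.

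ATF3 had the largest serum response of the 5. Its level was 16.4, 14.4 and 16.1 CPM in the DMSO-S0 libraries and 1024, 990.1 and 1109 CPM in DMSO-S30. With dTAG it was 18.9, 18.1 and 20.3 CPM without serum and 843, 727 and 779 CPM with serum. The serum libraries lay far above the others under both treatments, and all 3 dTAG-S30 libraries lay below all 3 of DMSO-S30.

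The fitted log2 fold change of ATF3 with serum was 6.06 (SE 0.089, adjusted p = 6.03e-27) in DMSO-treated cells, or 66.5-fold, and it was the 8th largest rise of the 13093 genes. In dTAG-treated cells it was 5.36 (SE 0.083, adjusted p = 1.99e-26), or 41.0-fold. The order of levels was DMSO-S30, dTAG-S30, dTAG-S0 and DMSO-S0, with no overlap between neighbours. ATF3 (ENSG00000162772.16) was counted over chr1:212565334-212620777 on the plus strand, introns included, of which exons take 7.21%. The MANE Select transcript starts at position 212608761 and spans 12015 of the 55444 bp, so the counted region extends well upstream of it.

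MAFF was the most strongly induced of the small MAFs. It was at 6.94, 8.11 and 8.09 CPM in DMSO-S0 and 62.6, 67.3 and 77.6 CPM in DMSO-S30. With dTAG the 3 libraries held 9.26, 9.61 and 8.82 CPM without serum and 57.6, 54.6 and 61.7 CPM with serum. As for ATF3, no neighbouring groups overlapped, and dTAG-treated cells held the middle values of the 4 groups. Serum raised MAFF by a log2 fold change of 3.16 (SE 0.097, adjusted p = 1.07e-19) in DMSO-treated cells, which is 8.96-fold, and by 2.65 (SE 0.092, adjusted p = 2.21e-18) in dTAG-treated cells, which is 6.26-fold.

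MAFF (ENSG00000185022.11, chr22:38200767-38216511, plus strand) shares 14012 bp with PLA2G6 on the other strand, and whether reads were counted by strand is not given in the sources used here. PLA2G6, a phospholipase gene, was at 28.6 to 31.2 CPM in DMSO-S0 and 25.3 to 26.3 CPM in DMSO-S30. Its log2 fold change with serum was -0.21 (adjusted p = 0.0690) with DMSO and -0.08 (adjusted p = 0.500) with dTAG, so it was not called higher beside MAFF.

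MAFK was induced less, and its levels in DMSO- and dTAG-treated cells overlapped both without and with serum. DMSO-S0 libraries held 16.5, 16.8 and 19.0 CPM and DMSO-S30 libraries 39.6, 41.7 and 43.7 CPM. In dTAG-S0 the values were 18.9, 14.6 and 17.9 CPM and in dTAG-S30 38.9, 34.4 and 39.9 CPM. Serum raised MAFK by 1.24 (SE 0.094, adjusted p = 3.88e-11) on the log2 scale in DMSO-treated cells and by 1.15 (SE 0.091, adjusted p = 1.25e-10) in dTAG-treated cells, or 2.36-fold and 2.22-fold. MAFK (ENSG00000198517.9, chr7:1530714-1543043, plus strand) overlaps TMEM184A on the other strand by 809 bp. TMEM184A had a log2 fold change with serum of -0.02 in DMSO-treated cells and rose by 0.25 (adjusted p = 0.0349) in dTAG-treated cells.

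MAFG was near the same level in all libraries. It was at 12.9, 13.2 and 13.6 CPM in DMSO-S0 and 14.5, 15.8 and 16.3 CPM in DMSO-S30. The dTAG-S0 libraries held 15.0, 12.6 and 14.5 CPM and dTAG-S30 libraries 15.8, 17.7 and 15.9 CPM. With serum the libraries lay above those without under the same treatment, with no overlap, and DMSO- and dTAG-treated libraries overlapped. The log2 fold change with serum was 0.23 (95% interval 0.02 to 0.43, adjusted p = 0.0982) in DMSO-treated cells and 0.23 (0.03 to 0.43, adjusted p = 0.0834) in dTAG-treated cells.

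MAFG passed the threshold with TMM scaling (0.30, adjusted p = 0.0329, and 0.29, adjusted p = 0.0299) and in DESeq2 (0.29, adjusted p = 0.0270, and 0.28, adjusted p = 0.0307), in DMSO- and dTAG-treated cells. It also passed in dTAG-treated cells without dTAG-S0 replicate 1 (0.29, adjusted p = 0.0457), and its value there was 0.15 without dTAG-S0 replicate 2. MAFG (ENSG00000197063.10, chr17:81918270-81927714, minus strand) shares 3054 bp with SIRT7 on the same strand, so reads of the 2 genes may not be separated. SIRT7, a deacetylase gene, had log2 fold changes with serum of -0.14 and -0.16 that did not pass the test.

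JDP2, the ATF3 relative, rose modestly. It was at 13.2, 13.1 and 13.9 CPM in DMSO-S0 and 22.9, 23.0 and 26.4 CPM in DMSO-S30. With dTAG its values were 15.2, 14.7 and 15.9 CPM without serum and 22.5, 21.2 and 23.97 CPM with serum. Libraries with serum lay above all those without, DMSO-S30 and dTAG-S30 overlapped, and the dTAG-S0 libraries lay above those of DMSO-S0. The log2 fold change with serum was 0.85 (SE 0.092, adjusted p = 5.08e-08) in DMSO-treated cells and 0.55 (SE 0.088, adjusted p = 3.01e-05) in dTAG-treated cells, or 1.81-fold and 1.47-fold. JDP2 (ENSG00000140044.12) lies at chr14:75427716-75474111 on the plus strand.

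**Figure D2:**
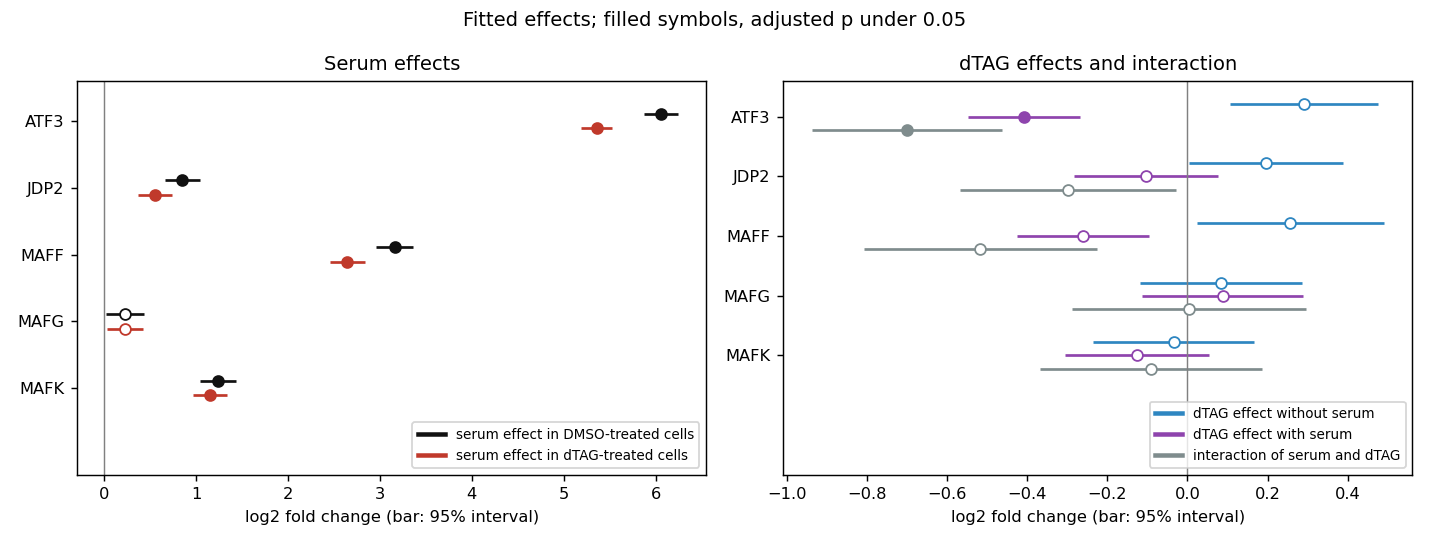
Fitted log2 fold changes of the 5 genes with 95% intervals (bars), serum effects on the left and dTAG effects and the interaction on the right, with filled symbols for an adjusted p under 0.05. The serum effects run from 0.23 for MAFG to 6.06 for ATF3, and of the dTAG effects and interactions only the ATF3 values of -0.41 with serum and -0.70 for the interaction are filled.

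Levels per length give only a rough comparison between genes. Counts were taken over whole genes, introns included, so values per kb of exon or of the MANE Select transcript may also hold intronic reads. Exons took from 7.21% (ATF3) to 55.5% (MAFG) of the counted gene, so this may differ between genes. Per kb of exon (the union of annotated exons in GENCODE v44), DMSO-S0 cells held 3.91 ± 0.281 CPM (SD, n = 3) of ATF3, 3.90 ± 0.305 of MAFK, 2.53 ± 0.0678 of MAFG, 2.14 ± 0.0681 of JDP2 and 1.38 ± 0.120 of MAFF. ATF3 and MAFK did not differ beyond their spread. In DMSO-S30 cells the order became ATF3 at 260.4 ± 15.3 CPM per kb, MAFF at 12.3 ± 1.37, MAFK at 9.32 ± 0.452, JDP2 at 3.85 ± 0.319 and MAFG at 2.96 ± 0.176. ATF3 was highest with serum and MAFF second with any of 3 lengths tried, but the order without serum depended on the length. Per kb of the whole counted gene, which includes introns, ATF3 (0.282 ± 0.0202 CPM) and JDP2 (0.289 ± 0.00918) were the low pair in DMSO-S0, and MAFK (1.41 ± 0.111) and MAFG (1.40 ± 0.0376) the high pair, with no difference beyond the spread within either pair.

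The makeup of the small MAF transcripts shifted toward MAFF with serum. Per kb of exon, MAFF was 17.6% ± 1.02 (SD, n = 3) of the sum of the 3 small MAFs in DMSO-S0 and 50.01% ± 1.54 in DMSO-S30. In dTAG-treated cells its share was 20.3% ± 2.51 without serum and 47.1% ± 0.663 with serum. MAFG, at a near constant level, went from 32.5% ± 1.01 to 12.04% ± 0.375 in DMSO-treated cells, and MAFK from 49.9% ± 1.30 to 38.0% ± 1.21. The sum of the 3 was 7.80 ± 0.455 CPM per kb in DMSO-S0, 24.6 ± 1.97 in DMSO-S30, 8.17 ± 0.705 in dTAG-S0 and 21.9 ± 1.08 in dTAG-S30. Its DMSO and dTAG libraries overlapped both without and with serum. On the length of the MANE Select transcripts, a choice made after the data were seen, the MAFF share was 29.5% ± 1.47 in DMSO-S0 and 65.3% ± 1.39 in DMSO-S30. There MAFG, at 23.8% ± 0.843, was the smallest in DMSO-S0. The sums with serum did not overlap on that length, at 40.94 to 48.81 CPM per kb in DMSO-S30 and 36.66 to 40.92 in dTAG-S30. Per kb of the whole counted gene the MAFF share was 14.8% ± 0.870 in DMSO-S0 and 46.6% ± 1.53 in DMSO-S30. Shares and sums are descriptions, since with 3 libraries against 3 no exact permutation test can go below 0.1. They also depend on how reads in overlapping genes and introns were counted. MAFF shares 14012 bp with PLA2G6 and MAFG 3054 bp with SIRT7, and how reads there were handled is not given in the sources used here.

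**Figure D3:**
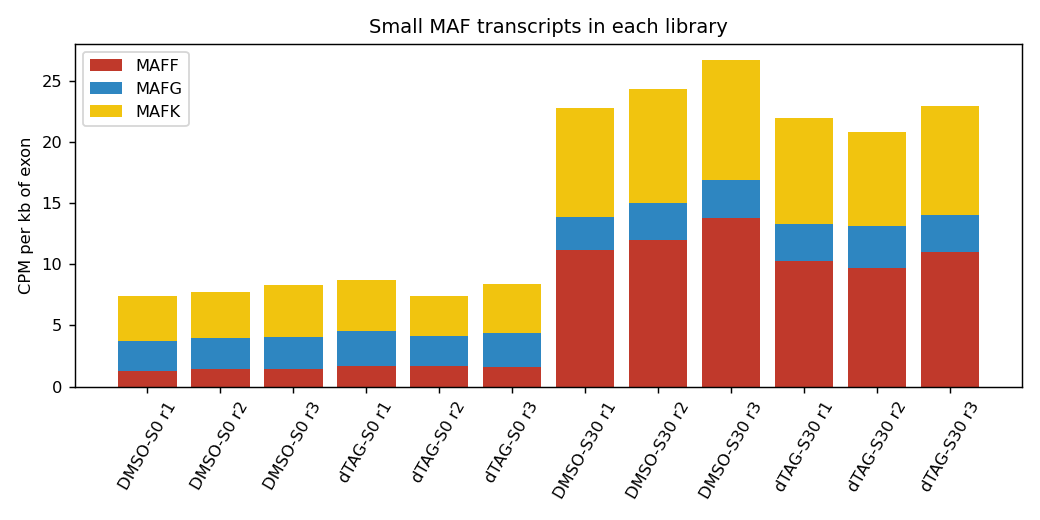
Stacked bars of MAFF (bottom), MAFG (middle) and MAFK (top) in CPM per kb of exon in each of the 12 libraries (r1 to r3, replicates), on an axis from 0. On this length the MAFF segment grows from the smallest of the 3 without serum to the largest with serum, while the MAFG segment stays near the same height.

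No group has untagged KAP1, so an effect of the ligand and one of KAP1 loss cannot be told apart. Treatment with dTAG without serum changed none of the 5 genes at the threshold in edgeR's quasi-likelihood test. Among all genes tested, 0.855% rose and 0.451% fell. At an unadjusted p under 0.05 there were 3 of the 5 (ATF3, JDP2 and MAFF) and 1528 of all 13093 genes. DESeq2 called 1 of the 5 (ATF3) and 257 of all 13093 genes, 176 of them higher. The log2 fold changes, dTAG-S0 against DMSO-S0, were 0.29 for ATF3 (95% interval 0.11 to 0.48, adjusted p = 0.134), 0.26 for MAFF (0.02 to 0.49, adjusted p = 0.364) and 0.20 for JDP2 (0.00 to 0.39, adjusted p = 0.417). MAFG was at 0.08 (-0.12 to 0.29) and MAFK at -0.03 (-0.24 to 0.17). For 3 of the 5 genes (ATF3, MAFF and JDP2) all dTAG-S0 libraries lay above all DMSO-S0 libraries, and for none below, where 8.5% of all genes tested lay above and 9.23% lay below.

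ATF3 without serum did not pass in 7 of the 9 alternatives other than leaving out a library (adjusted p up to 0.307) or in 11 of the 12 fits with 1 library left out (up to 0.396). It passed in DESeq2 (0.30, adjusted p = 0.0326), with 2 ERCC factors (0.33, adjusted p = 0.0421) and on leaving out dTAG-S30 replicate 3 (0.30, adjusted p = 0.0465).

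With 30 min of serum, dTAG lowered ATF3 and none of the other 4 genes at the threshold. Among all genes tested 0.596% were higher and 0.634% lower. ATF3 in dTAG-S30 fell by 0.41 on the log2 scale (95% interval -0.55 to -0.27, adjusted p = 0.000912), which is 0.754 times its level in DMSO-S30, the 348th lowest of 13093. MAFF was at -0.26 (-0.42 to -0.09, adjusted p = 0.142), MAFK at -0.13 (-0.31 to 0.05), JDP2 at -0.10 (-0.28 to 0.08) and MAFG at 0.09 (-0.11 to 0.29). For 2 of the 5 genes (ATF3 and MAFF) all dTAG-S30 libraries lay below all DMSO-S30 libraries and for none above, where 8.1% of all genes tested lay below and 7.62% above.

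The MAFF value with serum was below 0 in all 12 fits with 1 library left out, but its size and side of the threshold varied. Without DMSO-S30 replicate 3, the highest MAFF library, the value was -0.16 (adjusted p = 0.634). Leaving out DMSO-S30 replicate 1 gave -0.31, which passed (adjusted p = 0.0320), as did -0.30 when dTAG-S30 replicate 3 was dropped (adjusted p = 0.0426) and -0.25 with no filter on counts (adjusted p = 0.0248).

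**Figure D4:**
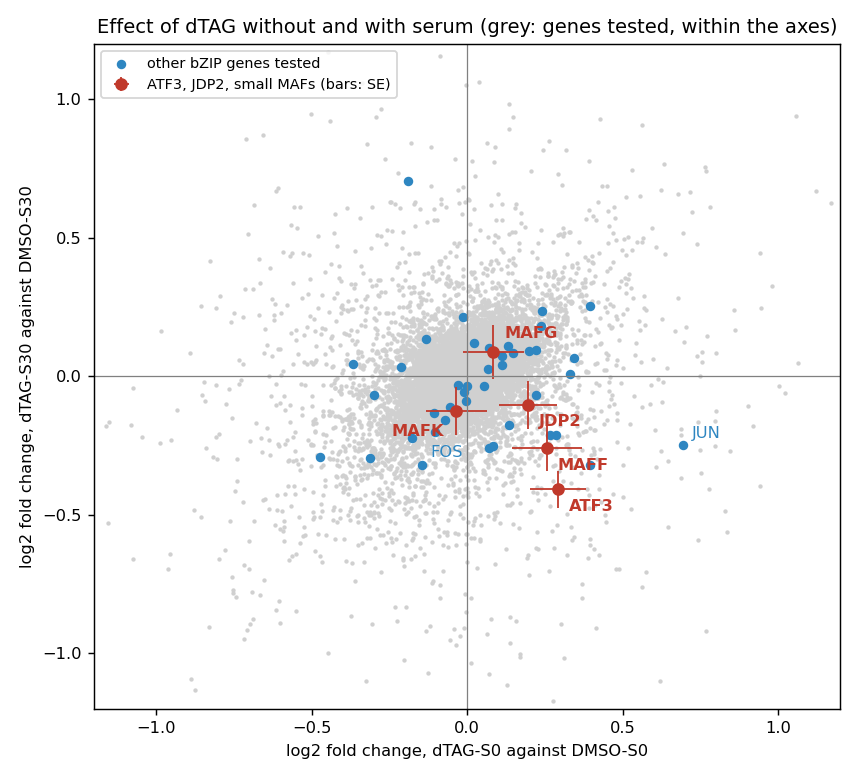
Log2 fold change with dTAG without serum (horizontal) and with serum (vertical) for ATF3, JDP2 and the small MAFs (red, bars SE), 41 other bZIP genes (blue) and the genes tested within the axes (grey), with 30 genes beyond the axis limit of 1.2 not drawn. ATF3, MAFF and JDP2 lie at values above 0 without serum and below 0 with serum, and MAFG lies above 0 on both axes.

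The serum response of ATF3 differed between treatments by the test of the difference itself. The interaction, the serum effect in dTAG-treated minus that in DMSO-treated cells, was -0.70 for ATF3 (95% interval -0.94 to -0.46, adjusted p = 0.00604), 1 of 5 genes called lower (0.0382% of those tested) with none called higher. MAFF was at -0.52 (-0.81 to -0.23, adjusted p = 0.503) and JDP2 at -0.30 (-0.57 to -0.03, adjusted p = 0.9999). MAFK was at -0.09 (-0.37 to 0.19) and MAFG at 0.00 (-0.29 to 0.30). The ATF3 call was lost when libraries were scaled by the spike-ins (-0.72, adjusted p = 0.0522). With no filter on counts MAFF was called (-0.55, adjusted p = 0.0134).

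On the CPM scale the rise of ATF3 with serum was 1025 CPM in DMSO-treated cells and 764 CPM in dTAG-treated cells, or 74.5% of it. For MAFF the rise was 61.4 and 48.7 CPM (79.3%), for MAFK 24.3 and 20.6 CPM (84.8%), and for JDP2 10.7 and 7.25 CPM (67.7%). MAFG gained 2.25 and 2.40 CPM (107%). These rises are given as a description of the group means.

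Among the partners of these proteins, genes of the FOS and JUN family, which form AP-1, were the most strongly induced. Of 10 FOS, JUN and BATF genes 9 were tested, and 7 rose and none fell with serum under either treatment. Their median log2 fold change was 3.05 in DMSO-treated cells. Among all genes tested 9.18% rose and 17.1% fell in DMSO-treated cells, and 9.09% rose and 15.4% fell in dTAG-treated cells. FOS rose by 6.48 and FOSB by 6.41, more than ATF3, JUN by 4.26, JUNB by 3.08, FOSL1 by 3.05 and FOSL2 by 2.85, and JUND by a smaller amount, 1.097, all on the log2 scale in DMSO-treated cells. Among the 46 bZIP genes tested in DMSO-treated cells, ATF3 thus came next after FOS and FOSB, and MAFF next after JUN.

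JUN, a partner of ATF3 and JDP2, was the other bZIP gene called in the interaction. It was at 9.70 to 9.95 CPM in DMSO-S0 and 14.8 to 17.1 CPM in dTAG-S0, and at 173 to 200 CPM in DMSO-S30 and 150 to 177 CPM in dTAG-S30. JUN rose with dTAG without serum (0.69, adjusted p = 0.000116), its interaction was -0.94 (adjusted p = 0.000362) and its value with serum was -0.25 (adjusted p = 0.0956). JUND also rose with dTAG without serum (0.34, adjusted p = 0.0268) and FOS fell with dTAG in the presence of serum, by 0.32 (adjusted p = 0.0166). The JUND call was lost without dTAG-S0 replicate 1 (0.26, adjusted p = 0.114) or replicate 3 (0.30, adjusted p = 0.0749), and the FOS call without dTAG-S30 replicate 1 (-0.25, adjusted p = 0.0970).

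Of 18 ATF and CREB genes 16 were tested, and 7 rose and 2 fell with serum in DMSO-treated cells. In the presence of dTAG 6 rose and 2 fell. Among all genes tested 9.18% rose and 17.1% fell with DMSO, and 9.09% rose and 15.4% fell with dTAG. CREM, whose inducible product represses at cAMP response elements, rose by 1.82 and 1.49 on the log2 scale in DMSO- and dTAG-treated cells, and CREB5 by 1.47 and 1.42. XBP1, a factor of the unfolded protein response, was the one gene of this list called with dTAG, at 0.39 (adjusted p = 0.00412) without serum. In that comparison 0.855% of all genes tested rose. Of 8 C/EBP and PAR genes tested 3 rose and 1 fell with serum in DMSO-treated cells, and 3 rose in dTAG-treated cells. Falls in both lists were no more frequent than among all genes tested. CEBPD rose by 1.75 and 1.26, and NFIL3, a bZIP repressor, by 1.19 and 0.87. NFIL3 also rose with dTAG without serum (0.33, adjusted p = 0.0105).

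**Figure D5:**
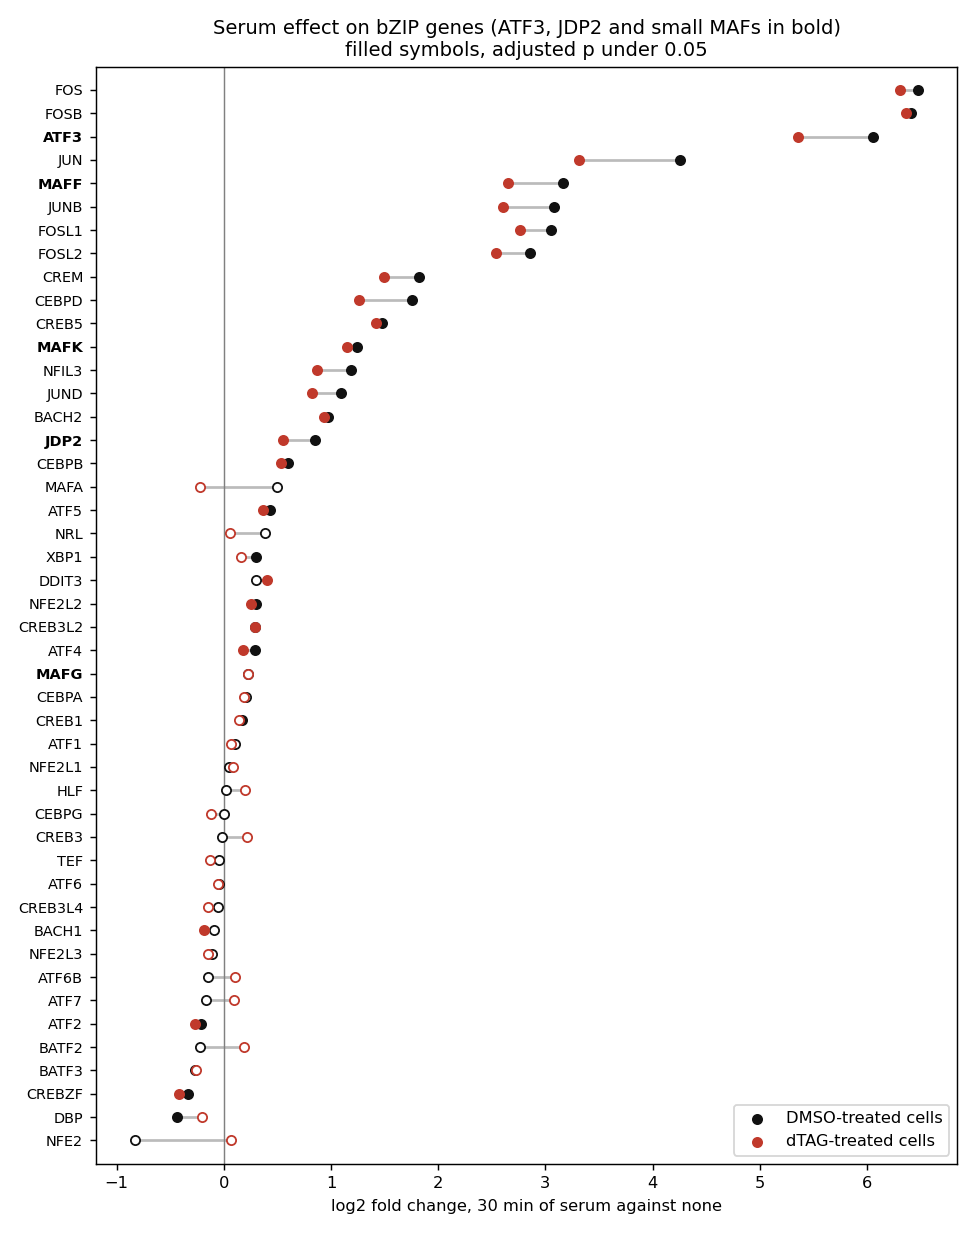
Log2 fold change with 30 min of serum in DMSO-treated (black) and dTAG-treated (red) cells for the 46 bZIP genes tested, ordered by the value in DMSO-treated cells, with filled symbols for an adjusted p under 0.05. ATF3 lies behind FOS and FOSB only, MAFF between JUN and JUNB, MAFK and JDP2 lower among the induced genes, and MAFG among the genes near 0.

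CNC and BACH proteins bind DNA as dimers with small MAFs. All 6 of their genes were tested, of which 2 rose and none fell with serum in DMSO-treated cells, and 2 rose and 1 fell in dTAG-treated cells, beside 9.18% and 9.09% of all genes that rose and 17.1% and 15.4% that fell. With dTAG none was called in edgeR's quasi-likelihood test at either serum state, none was at an unadjusted p under 0.05 and DESeq2 called none. The genes, named after their values were seen, were BACH2 (0.97 and 0.93), a repressor that dimerises with small MAFs, NFE2L2 (0.30 and 0.25), which encodes NRF2, and the one that fell, BACH1 (-0.18 in dTAG-treated cells, adjusted p = 0.0153).

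Dimers of CNC proteins and small MAFs drive antioxidant genes. Of 17 listed 16 were tested and 1 rose with serum under each treatment, where 9.18% and 9.09% of all genes rose. It was SQSTM1 (0.23 and 0.17), a selective autophagy receptor gene named after its values were seen. With dTAG and no serum 2 of the 16 rose, where 0.855% of all genes tested rose. HMOX1, heme oxygenase, was at 5.62 to 6.23 CPM in the DMSO-S0 libraries and at 8.35 to 11.7 CPM in dTAG-S0 (0.74, adjusted p = 0.00527). SLC7A11, the cystine transporter, was at 20.1 to 22.2 CPM in DMSO-S0 and at 29.3 to 31.2 CPM in dTAG-S0 (0.47, adjusted p = 0.00527). With serum SLC7A11 was again higher with dTAG (0.52, adjusted p = 0.00190), and HMOX1 was at 0.48 (adjusted p = 0.132). The median of the list with dTAG and no serum was 0.11, beside -0.01 over all genes tested.

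The integrated stress response induces ATF3 through ATF4. Of 10 genes listed for it 9 were tested, and 2 rose and 1 fell with serum in DMSO-treated cells, beside 9.18% and 17.1% of all genes tested. In dTAG-treated cells 4 rose and 1 fell with serum, beside 9.09% and 15.4%. PPP1R15A, the phosphatase subunit GADD34, rose by 1.14 and 1.15. ASNS, asparagine synthetase, was higher with dTAG without serum (0.29, adjusted p = 0.0180) and with serum (0.29, adjusted p = 0.0251). The ASNS call with serum was lost on leaving out dTAG-S30 replicate 2 or either of DMSO-S30 replicates 2 and 3 (0.25 to 0.30, adjusted p from 0.107 to 0.116). That without serum was lost when DMSO-S0 replicate 3 was left out (0.23, adjusted p = 0.0657). ATF4 and XPOT, named after their values were seen, were the other genes called in DMSO-treated cells, ATF4 with a rise of 0.29 and XPOT with a fall of 0.20. Of serum response factor and its 3 ternary complex partners, 2 rose with serum in DMSO-treated cells and 1 with dTAG. SRF rose by 2.73 and 2.53, and ELK1, named after its values were seen, by 0.21 (adjusted p = 0.0314) with DMSO, while with dTAG it was at 0.16 (adjusted p = 0.0863).

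The genes whose pattern lay closest to that of ATF3 were IEGs, some of other families (NR4A1, CCN1 and EGR3) and some bZIP genes (FOSB and FOS). Likeness was taken as the root mean square difference of log2 CPM over the 12 libraries, each gene relative to its own DMSO-S0 mean, so the genes share libraries and no test is given. NR4A1, an orphan nuclear receptor, was nearest at 0.151, followed by CCN1, a matricellular protein, at 0.325, EGR3, a zinc finger factor, at 0.364, FOSB at 0.401 and FOS at 0.408. For MAFF the nearest were FOSL1 at 0.113, JUNB at 0.134 and GEM, a small GTPase, at 0.134.

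The dTAG effects of these neighbours can be set beside that of ATF3 (-0.41 with serum, interaction -0.70). The neighbours were chosen over all 12 libraries, dTAG-treated ones included, so likeness in these effects follows in part from the choice. EGR3 was lower with dTAG in the presence of serum (-0.43, adjusted p = 0.00214) with an interaction of -0.82 (adjusted p = 0.0721), and CCN1 was lower too (-0.30, adjusted p = 0.0126) with an interaction of -0.14. NR4A1 was at -0.10 (adjusted p = 0.642) with an interaction of -0.44 (adjusted p = 0.413). FOSB was at -0.22 (adjusted p = 0.0802) with an interaction of -0.04, and FOS at -0.32 (adjusted p = 0.0166) with an interaction of -0.17. Among the neighbours of MAFF, JUNB was at 0.27 without and -0.21 with serum (adjusted p = 0.166 and 0.252), GEM at 0.21 and -0.24 (adjusted p = 0.349 and 0.111), and FOSL1 at 0.22 and -0.07 (adjusted p = 0.202 and 0.799).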

How the data were processed

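RNA-Seq of 12 libraries in 4 groups of 3, named from the labels, was analysed. The authors trimmed reads (Trim Galore 0.6.4), mapped them to hg38 with STAR and counted them with featureCounts (Subread 1.6.3) over whole genes, introns included. The deposited values are raw counts of protein-coding genes and ERCC transcripts, not normalized. The handling of strand, multi-mapped reads and overlapping genes is not given in the sources used here, and precision covers counting error and library spread, not amplification. The study describes biological replicates, and p-values measure the spread between these libraries.

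Genes reaching 10 counts in 6 or more of the libraries were tested. After upper-quartile scaling, the spike-ins gave 1 factor of unwanted variation (RUVg, as the leading singular vector). All 4 groups were fitted in edgeR 4.0.16 under R 4.3.3, and the two-sided quasi-likelihood F-test was used, which was tested on simulated data. Table starts, counted from 0, are given from 1. GENCODE v44 gave exons, though the annotation behind the counts is not given in the sources used here, and symbols came from the gene name table.

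The 5 genes and all lists were chosen with earlier results of these data known. Named were the 5 genes, genes of the lists called at a log2 fold change of at least 1 in either direction or with dTAG or in the interaction, the 5 genes nearest to ATF3 and 3 nearest to MAFF, and TRIM28. TGACGT was added to the motifs after the windows were read. Alternatives were TMM scaling, spike-in library sizes, no or 2 ERCC factors, the likelihood ratio test, DESeq2 1.42.0, no count filter, only the groups compared, a replicate block and each library left out.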

Additional observations from a re-analysis of the deposited data

Results flagged for a closer look

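The serum response of ATF3 differed between dTAG- and DMSO-treated cells by the interaction test, with a difference of -0.70 on the log2 scale (serum effect 5.36 with dTAG and 6.06 with DMSO, adjusted p = 0.00604 in edgeR's quasi-likelihood test). The serum response of JUN also differed, with an interaction of -0.94 (serum effect 3.32 with dTAG and 4.26 with DMSO, adjusted p = 0.000362).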

How the results depend on the processing

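Of 220 values of the 5 genes under alternatives other than leaving out a library, 204 kept their direction and side of the threshold, as did 289 of 300 with 1 library left out. The interaction of ATF3 was -0.72 (adjusted p = 0.0522) with spike-in library sizes. The dTAG effect on ATF3 without serum was 0.33 with 2 ERCC factors and 0.30 in DESeq2, and that on MAFF with serum -0.25 and its interaction -0.55 with no count filter, all called. The serum effect on MAFG was called at 0.30 and 0.29 with TMM scaling, 0.29 and 0.28 in DESeq2 and, in dTAG-treated cells, 0.25 with only the groups compared. Values near 0 changed sign: the MAFG interaction was -0.0059 with TMM scaling, -0.029 with spike-in library sizes, -0.012 with no count filter and -0.011 in DESeq2, and MAFK without serum was 0.0040 with spike-in library sizes and 0.0056 with no count filter. With 1 library left out the ranges were 0.23 to 0.36 for ATF3 without serum, -0.31 to -0.16 for MAFF with serum, 0.15 to 0.29 for MAFG with serum in dTAG-treated cells, -0.079 to 0.050 for the MAFG interaction and -0.093 to 0.076 for MAFK without serum. The cause of these shifts was not tested.

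Genes called moved more. With spike-in library sizes they were 1766 and 1646 for serum (3439 in DMSO- and 3203 in dTAG-treated cells here), 76 and 66 for dTAG without and with serum (171 and 161) and 3 for the interaction (5). Without and with serum the dTAG effect had 287 and 266 with the likelihood ratio test, 275 and 406 with no count filter and 257 and 298 in DESeq2, and 265 with serum with only the groups compared. The interaction had 8 with TMM scaling, 9 with 2 ERCC factors, 10 with the likelihood ratio test, 29 with no count filter and 22 in DESeq2. With 1 library left out, calls were 110 (without dTAG-S0 replicate 3) to 295 (without dTAG-S30 replicate 3) for dTAG without serum, where leaving out DMSO-S30 replicate 1 or dTAG-S0 replicate 2 gave 281 and 284. For dTAG with serum they were 96 (without DMSO-S30 replicate 2 or 3) to 260 (without DMSO-S0 replicate 1), where leaving out DMSO-S0 replicate 2 or dTAG-S30 replicate 1 gave 244 and 243. For the interaction they were 5 to 14, with 14 without dTAG-S30 replicate 3, 11 without DMSO-S30 replicate 1 and 8 without DMSO-S0 replicate 2 or 3, dTAG-S0 replicate 1 or dTAG-S30 replicate 1.

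The replicate numbers did not pair the libraries: deviations of same-numbered libraries correlated at -0.15 to 0.14 (median 0.03), above 0.1 in 1 of 18 pairs. With the replicate block the calls were 3513, 3279, 173, 167 and 7, and no call of the 5 genes changed. Of the calls of other named genes 6 were lost with spike-in library sizes (ASNS without and with serum, FOS and SLC7A11 with serum, JUND and NFIL3 without) and 7 with 1 library left out. Depth limits the low genes most: MAFF in DMSO-S0 rested on 131 to 177 counts a library.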
